A study of Mus musculus with 8 samples.

Results

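The voltage-gated calcium channel subunits described here are 10 genes, and all 10 were found by gene symbol among the 17700 genes counted in mouse cerebellum. They were chosen by name as members of a gene family, with earlier results of these data known. Of these, 8 encode pore-forming alpha1 subunits: Cacna1a (P/Q-type), Cacna1b (N-type), Cacna1e (R-type), Cacna1c and Cacna1d (L-type), and Cacna1g, Cacna1h and Cacna1i (T-type). The other two are auxiliary, the beta subunit Cacnb4 and the alpha2delta subunit Cacna2d2.

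RNA came from C57BL/6JN mice, with 4 old animals of 83 to 102 weeks and 4 young animals of 19 to 22 weeks, and with 2 males and 2 females at each age. The labels name no transgene or treatment and use old as the treated group. Age therefore gives the main comparison, sex a second, and the title asks how gene body DNA hydroxymethylation relates to such age changes, which RNA counts alone do not address. The series' design text names liver and other ages, so the labels of each sample were followed for these, and the design text calls the animals of a group biological replicates.

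Voltage-gated calcium channels open when the membrane depolarizes and let calcium into the cell. The alpha1 subunit forms the pore and senses voltage, while beta and alpha2delta subunits bring the channel to the membrane and tune its opening. In the cerebellum, P/Q-type channels carry most of the calcium current of Purkinje cells and trigger transmitter release, and T-type channels open near rest and shape burst firing. Mouse mutants of Cacna1a (tottering), Cacnb4 (lethargic) and Cacna2d2 (ducky) are ataxic.

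Counts totalled 6079485 to 7236720 per library. Levels are given as CPM, read counts scaled to a common library total of tested genes after TMM adjustment, and 3 counts corresponded to 0.421 to 0.511 CPM. The 12 granule neuron markers summed to 4759 to 8021 CPM and the 13 Purkinje cell markers to 5867 to 8525 CPM, and each marker of both lists had enough counts to be tested. Other lists varied within each age: the sum was 80.1 to 1313 CPM for 8 choroid plexus genes, 6.73 to 59.7 CPM for 8 brainstem neuron genes and 0.682 to 84.2 CPM for 7 liver genes. The tissue is bulk, so fewer cells of a type and less RNA per cell cannot be told apart in any result given here.

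Cacna1e, which forms the pore of R-type channels, was lower in every old mouse than in every young mouse. Its level was 336, 324, 317 and 266 CPM in old 1 to old 4, and 423, 383, 415 and 397 CPM in young 1 to young 4. Within the old group the values did not follow age: old 4, at 102 weeks, was lowest, but old 1, at 93 weeks, was above both mice of 83 weeks. Mean levels were 311 ± 30.8 CPM in old mice against 404 ± 18.0 CPM in young mice (SD, n = 4 each), so the old mean was 23.1% lower. The log2 fold change, old minus young, was -0.38 ± 0.08 (SE). It did not pass the quasi-likelihood test of edgeR (adjusted p = 0.125, by Benjamini-Hochberg over 14191 genes). The DESeq2 Wald test gave an adjusted p of 0.00503 for Cacna1e, and a slope on age in weeks in edgeR gave 0.0455, with a log2 change of -0.42 per 75 weeks.

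The size of this difference moved little across the settings. All 21 alternatives gave a negative log2 fold change for Cacna1e, from -0.43 to -0.31, and 2 of the 21 had an adjusted p under 0.05. Since all old mice lay below all young mice, the sign in the fits that left out libraries follows. The other alternatives refit the same 8 libraries, so the shared sign adds little support. With the granule neuron marker score as a covariate the log2 fold change was -0.34 (edgeR adjusted p = 0.0521), and with the Purkinje cell score it was -0.37 (0.205). Those markers were themselves mostly lower in old mice, with negative values for 11 of 12 granule neuron genes and 12 of 13 Purkinje cell genes, although the ages overlapped in their sums. Granule neuron markers summed to 4759 to 6608 CPM in old and 5206 to 8021 CPM in young mice. Microglia markers separated the ages as Cacna1e did, in the opposite direction: the 7 genes summed to 167 to 321 CPM in old and 106 to 145 CPM in young mice, all 7 were positive with a median log2 fold change of 0.68, 5 had an unadjusted p under 0.05 and none passed. Of 8 Bergmann glia and astrocyte markers, 6 were negative and 4 had an unadjusted p under 0.05. Over all genes 51.4% were negative, 11.0% had such a p and 0.120% passed. Log2 fold changes in this list ran from -0.82 to 0.71. Only Fabp7, a fatty acid binding protein gene, passed, and it fell (log2 fold change -0.82 ± 0.12, edgeR adjusted p = 0.0282). That call was lost without young 3, without young 4 and with the choroid plexus marker score as a covariate, when 0 of all genes passed. Whether these cell types have a part in the Cacna1e difference was not tested.

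**Figure D1:**
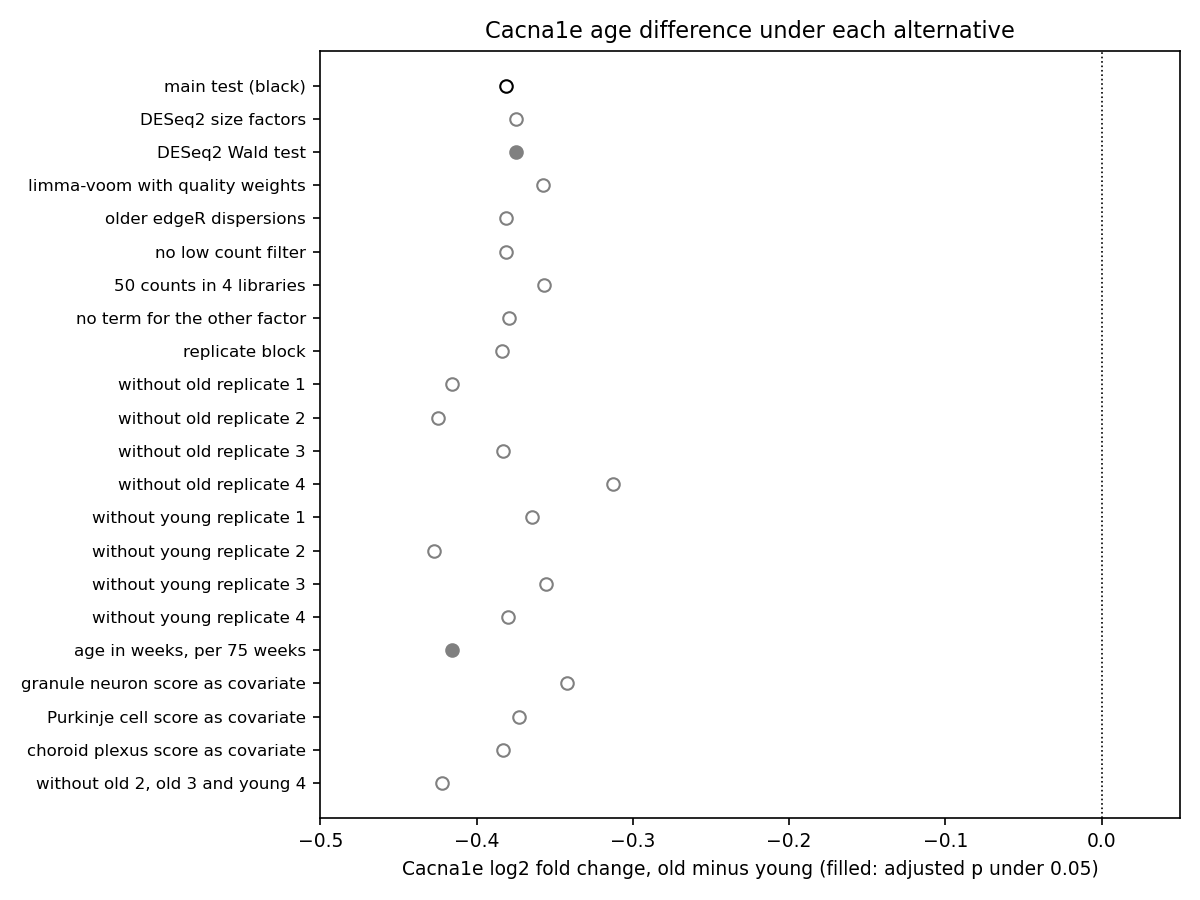
Log2 fold change of Cacna1e, old minus young (horizontal axis), in the main edgeR test (black) and in each of the 21 alternatives (grey), with filled points for an adjusted p under 0.05. Every point lies between -0.43 and -0.31, and only the DESeq2 test and the slope on age in weeks are filled.

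By sex, old males averaged 327 CPM of Cacna1e against 403 CPM in young males, and old females 295 CPM against 406 CPM in young females, with 2 mice per cell. Since all old mice lay below all young mice, the direction within each sex follows and adds no support. The age change of females minus that of males was -0.16 ± 0.17 (SE) on the log2 scale, which is smaller than its error. Cacna1e lies on chromosome 1 at 154390731 to 154884501 in GRCm38, on the minus strand, and its counts cover the gene as a unit.

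Of the 10 members, 1 (Cacna1e) had old values wholly below young values, against 3.42% of all genes tested, and none had old values wholly above, against 3.15%. No member passed the adjusted p of 0.05 in edgeR, where 0.120% of all genes did. At an unadjusted p under 0.05, 1 member was counted, against 11.0% of all genes, so the family's share was near the background. In DESeq2 1 member was called against 0.881% of genes, on the slope with age in weeks 1 against 0.726%, and in limma-voom none. The median log2 fold change of the 10 was -0.0066, with 4 positive and 6 negative, beside a median of -0.0056 and 51.4% negative over all genes.

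**Figure D2:**
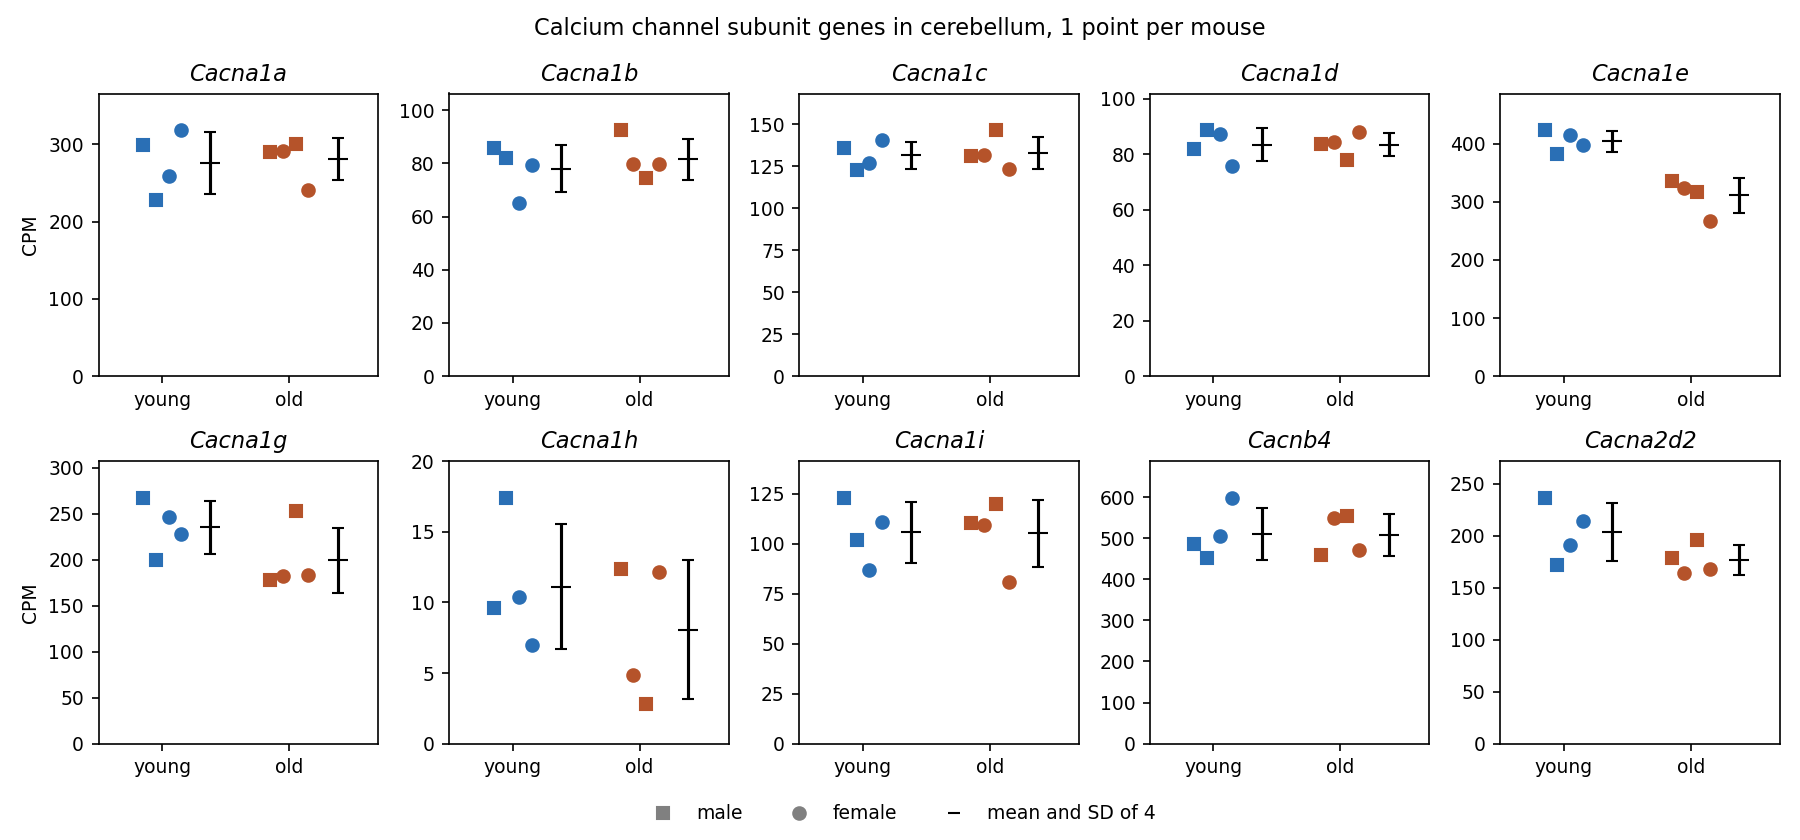
CPM of each member in each mouse (vertical axes, starting at 0), young in blue and old in orange, with squares for males, circles for females and the mean with SD beside each group of 4. Only in the Cacna1e panel do the 4 old points lie below the 4 young points. Cacna1h shows the widest spread relative to its level.

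Cacna1a and Cacna1b form the presynaptic P/Q-type and N-type channels, the nearest relatives of Cacna1e. Cacna1a stood at 290, 291, 301 and 241 CPM in old 1 to old 4 and at 299, 228, 259 and 318 CPM in young 1 to young 4. Its lowest mouse, young 2, and its highest, young 4, were both young, and the age groups overlapped. Its log2 fold change was 0.02 ± 0.11 (SE). Cacna1b was at 65.3 to 85.8 CPM in young and 74.4 to 92.4 CPM in old mice, with a log2 fold change of 0.06 ± 0.09. For Cacna1a the sign turned in 4 of the 8 fits that left out 1 library, so no direction can be given.

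Among the 10 members, the L-type genes varied least from mouse to mouse. Cacna1d ranged from 75.6 to 88.6 CPM, a coefficient of variation of 5.68% over the 8 mice, and Cacna1c from 123 to 146 CPM, at 6.28%. Their log2 fold changes were 0.0035 ± 0.08 and 0.02 ± 0.08. Cacna1c and Cacna1d encode channels that couple depolarization to gene expression in neurons, and Cacna1c is also the main channel of heart and smooth muscle. Cacna1d shares 589 exon bases on the opposite strand with Chdh, the choline dehydrogenase gene, which had 76 to 134 counts per library. As the strand setting of the counting is not given in the sources used here, some reads may be shared.

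The T-type genes differed from each other in level and in spread. Cacna1g, a T-type gene of Purkinje cells, had 178, 183, 253 and 184 CPM in old 1 to old 4 and 267, 200, 246 and 228 CPM in young 1 to young 4. All but old 3 of the old mice lay below all young mice. The log2 fold change was -0.24 ± 0.13 (edgeR adjusted p = 0.519), and without old 3 it was -0.38 (0.121). With the granule neuron marker score as a covariate it was -0.16, and with the Purkinje cell marker score it was -0.07. The Purkinje cell score was 0.16 in old 3 against -0.27 to -0.06 in the other old mice. Cacna1i, the T-type channel with the slowest kinetics, was at 80.8 to 120 CPM in old and 86.8 to 123 CPM in young mice, with a log2 fold change of -0.01 ± 0.11.

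Cacna1h, the T-type channel best known from sensory neurons, was the least abundant and most variable member. It had 12.4, 4.89, 2.83 and 12.2 CPM in old 1 to old 4 and 9.62, 17.4, 10.4 and 7.02 CPM in young 1 to young 4. The highest mouse, young 2, was 6.15-fold above the lowest, old 3, while this ratio was 1.17 to 1.59 for the other members. Counts were 18 to 111 per library, so counting error is larger here than for the other members, which had 383 to 4264. The log2 fold change was -0.45 ± 0.46, and the ages overlapped. It ranged from -0.83 to -0.08 when 1 library was left out, was -1.20 once the Purkinje cell score was added to the model and 0.013 with old 2, old 3 and young 4 left out, so no direction can be given.

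The brainstem neuron list was also high in some of the mice with much Cacna1h. Its 8 genes summed to 59.7, 18.1, 10.4 and 11.4 CPM in old 1 to old 4. In young 1 to young 4 they summed to 54.4, 47.5, 10.4 and 6.73 CPM. The highest sums, in old 1, young 1 and young 2, were all of males. Of the 8 genes, 6 could be tested, and 4 of the 6 were positive for age. All 6 were negative for sex (female minus male), with a median log2 fold change of -2.40, where 47.1% of all genes were negative. None of the 6 passed the edgeR test for age or sex. The serotonin transporter Slc6a4 was at 0 in old 2, old 4, young 1, young 3 and young 4, and the noradrenaline-synthesizing enzyme gene Dbh was at 0 in old 3 and young 4. The oligodendrocyte marker score was highest in young 2, at 0.43, and low in old 3 and young 4, at -0.34 and -0.35. Old 4 had 12.2 CPM of Cacna1h with a brainstem sum of 11.4 CPM, while young 1 had 9.62 CPM with a sum of 54.4 CPM. Cacna2d1, an alpha2delta subunit named after its values were seen, was highest in young 2 and old 1, at 116 and 112 CPM, and lowest in old 3, at 64.0 CPM. Whether neighbouring tissue contributed to these levels was not tested.

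**Figure D3:**
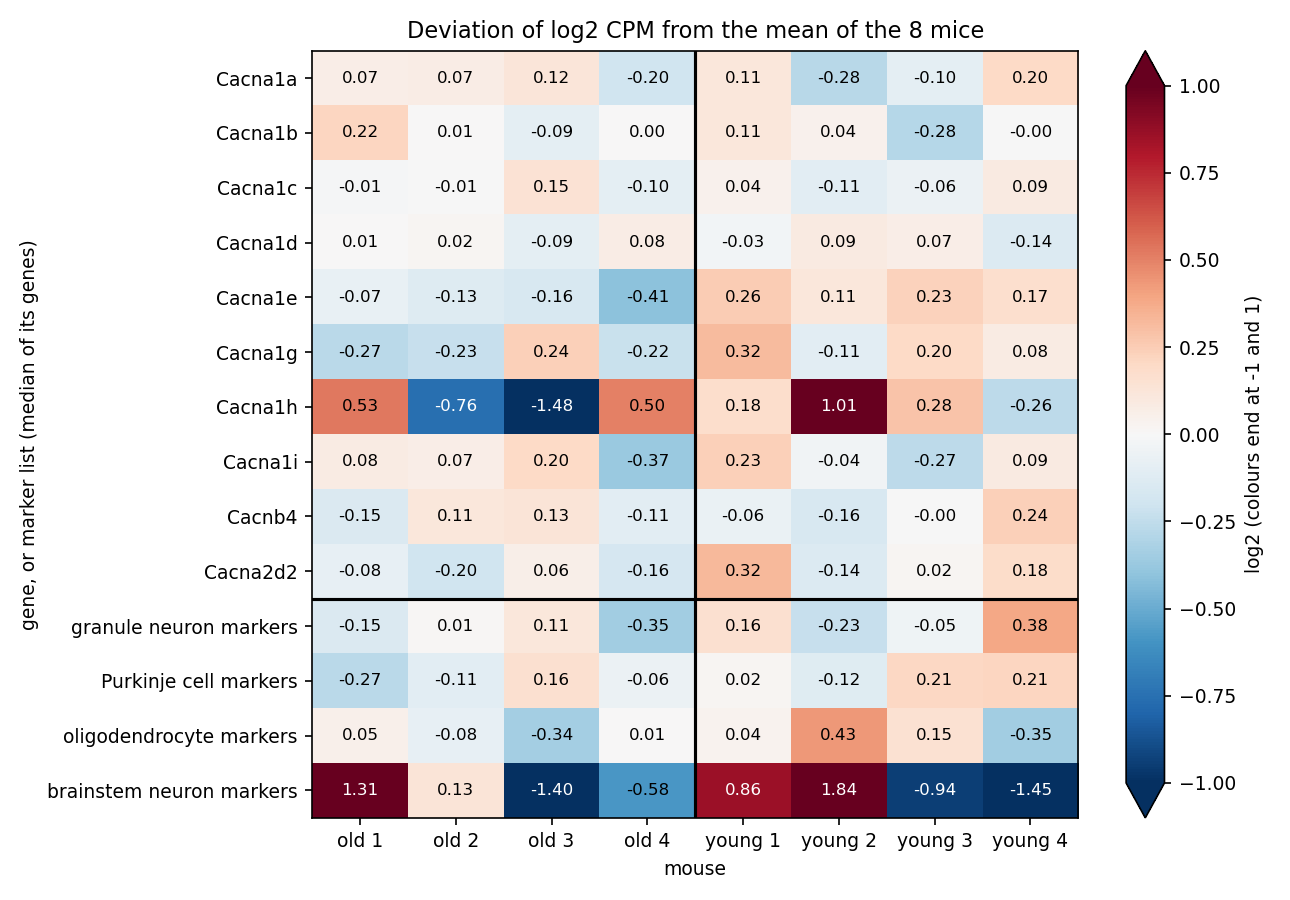
Deviation of log2 CPM from the mean of the 8 mice for each member (upper rows) and the median deviation of 4 marker lists (lower rows), with a column for each mouse and the value printed in each cell. The Cacna1e row is negative in old 1 to old 4 and positive in young 1 to young 4, and the Cacna1h row runs from -1.48 in old 3 to 1.01 in young 2.

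Cacnb4, a beta subunit abundant in the cerebellum, had 458, 549, 555 and 470 CPM in old 1 to old 4 and 485, 453, 506 and 598 CPM in young 1 to young 4. The age groups covered the same range, and the log2 fold change was -0.0027 ± 0.10, which became 0.0036 with DESeq2 size factors. Cacna2d2, the alpha2delta subunit of Purkinje cells, had 179, 164, 196 and 169 CPM in old 1 to old 4 and 237, 172, 191 and 214 CPM in young 1 to young 4. Its log2 fold change was -0.20 ± 0.10 (edgeR adjusted p = 0.495), and the ages overlapped through old 1, old 3, young 2 and young 3. With the Purkinje cell score as a covariate it was -0.11, and with the granule neuron score it was -0.12.

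Several members were low or high in the same mice as the granule neuron markers. Old 4 and young 2 had the lowest granule neuron scores, -0.35 and -0.23, and also the 2 lowest Cacna1a values. Young 4 had the highest score, 0.38, and the highest Cacna1a and Cacnb4. Cacna1d went the other way, with its lowest value in young 4 and its highest in young 2. Once the granule neuron score was added to the model, the age log2 fold changes were 0.15 for Cacna1a, 0.11 for Cacna1i and 0.09 for Cacnb4, none past the test.

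To compare genes, CPM was divided by the length of each gene's merged exons in GENCODE M21. On this per-length scale Cacnb4 was the highest member, at 56.8 ± 5.89 CPM per kb (SD, n = 8), 2.33-fold above Cacna1a and without overlap between any mice. Cacna1a (24.4 ± 2.78), Cacna2d2 (23.9 ± 3.14) and Cacna1g (21.4 ± 3.52) followed and did not differ beyond their spread, with Cacna1a above Cacna2d2 in 4 of 8 mice. Cacna1e came next at 14.2 ± 2.19 CPM per kb, below Cacna1g in 8 of 8 mice. Cacna1i (10.7 ± 1.51), Cacna1b (8.03 ± 0.797), Cacna1d (6.61 ± 0.375) and Cacna1c (6.24 ± 0.392) overlapped each with the next, though Cacna1e was above Cacna1i and Cacna1i above Cacna1b in every mouse. Cacna1h was last, at 0.982 ± 0.475 CPM per kb, 6.36-fold below Cacna1c.

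Part of this order depends on the length used. Per kb of the longest transcript, Cacna1e (24.0 ± 3.70) came close to Cacna1g (25.9 ± 4.26) and was above it in 2 of 8 mice. Cacna2d2 (32.8 ± 4.30) was above Cacna1g in 8 of 8 mice. The order of the last genes before Cacna1h turned round, with Cacna1c (10.1 ± 0.631) above Cacna1d (8.64 ± 0.490) in 8 of 8 mice and Cacna1d above Cacna1b (8.20 ± 0.814) in 5 of 8. Cacnb4 stayed highest and Cacna1h lowest of the members by both lengths.

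Together the 8 pore-forming genes summed to 89.1 ± 6.94 CPM per kb (SD, n = 4) in old mice against 95.9 ± 7.07 CPM per kb (SD, n = 4) in young mice, with overlap. T-type genes made up 35.7% ± 2.11 (SD, n = 8) of this sum and Cacna1a 26.3% ± 2.10. L-type genes made up 14.0% ± 1.12 and Cacna1b 8.72% ± 1.12. The Cacna1e share was 14.7, 14.4, 13.0 and 13.2% in old 1 to old 4, against 16.1, 17.2, 17.7 and 16.0% in young 1 to young 4. Cacna1e therefore held a smaller share of the pore-forming transcripts in every old mouse than in any young mouse. The Cacna1c share was higher in each old mouse (6.80 to 7.27%) than in each young mouse (6.16 to 6.72%), and since shares sum to a fixed total, these 2 are not independent. With the longest transcript as the length, T-type genes made up 30.5% and Cacna1e 19.3%.

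**Figure D4:**
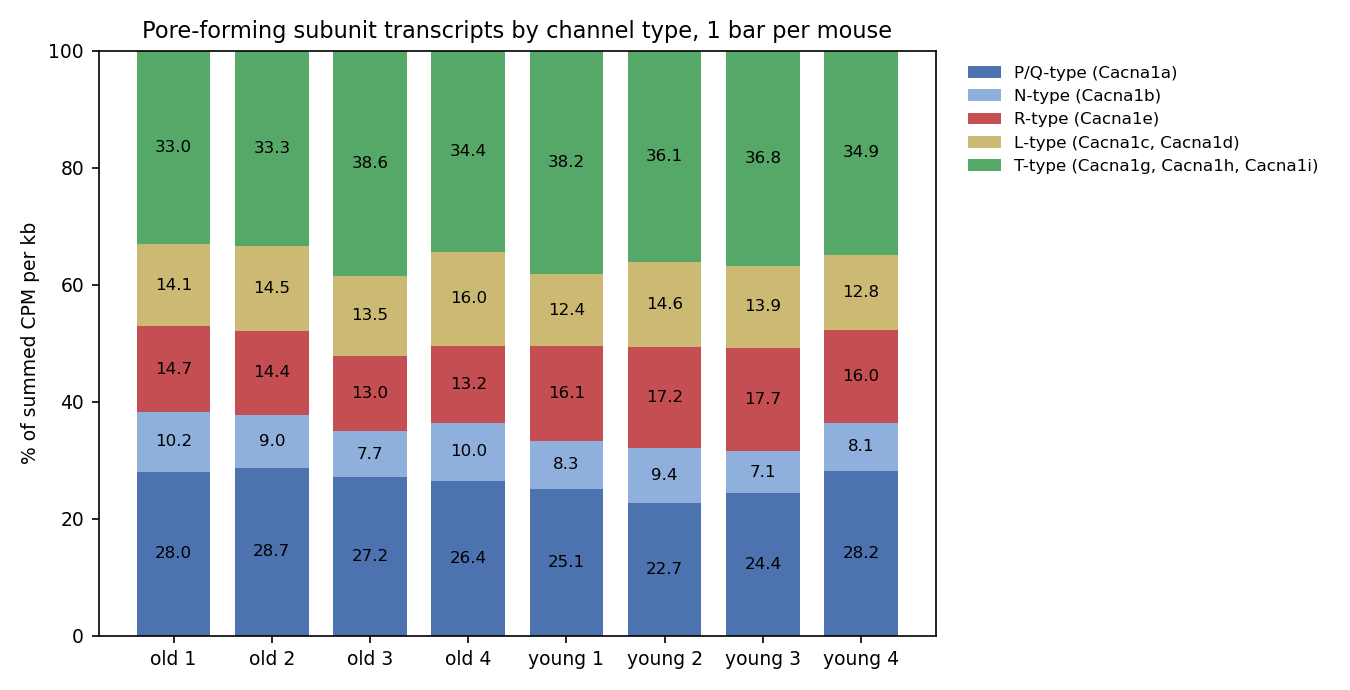
Share of the summed CPM per kb of the 8 pore-forming genes (vertical axis, percent) held by each channel type, with a bar for each mouse and the share printed in each segment. The red Cacna1e segment is 13.0 to 14.7% in old and 16.0 to 17.7% in young mice.

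The remaining genes named as channel subunits, 16 in a list set alongside the members, were compared in the same fit. Of these, 13 had enough counts, none passed the adjusted p of 0.05, 2 had an unadjusted p under 0.05, and 11 of 13 were negative, with a median log2 fold change of -0.14. Over all genes 11.0% had such a p and 51.4% were negative, so the count of 2 was close to the background. Their summed level was 651 to 702 CPM in old and 718 to 822 CPM in young mice, without overlap. The gamma family genes Cacng2 and Cacng7 weighed most in it, at means of 195 and 158 CPM over the 8 mice. Both, like Cacng8 below, encode auxiliary subunits of AMPA receptors, so the sum is not one of calcium channel subunits alone. Cacng2 and Cacng7 each overlapped between the ages. Such a separation was not particular to this list. The 15 genes that bind or restrain the channels, described below, summed to 5131 to 5392 CPM in old and 5407 to 5859 CPM in young mice. The microglia markers also separated, while the sums of the members and of the other lists overlapped. How often sums of lists drawn from all genes separate the ages was not tested. Cacnb3, another beta subunit, had 28.0 ± 3.13 CPM in old mice against 35.9 ± 3.59 CPM in young mice (SD, n = 4 each), with a log2 fold change of -0.36 ± 0.10 (edgeR adjusted p = 0.229). Cacng8 is a gamma family member that serves as an auxiliary subunit of AMPA receptors. It had 8.06 to 9.79 CPM in old and 11.0 to 16.2 CPM in young mice. Old values lay wholly below young values, as for 3.42% of all genes, and the log2 fold change was -0.57 ± 0.17 (edgeR adjusted p = 0.229). The muscle channel subunits Cacng1, Cacng6 and Cacna1s had 5, 2 and 28 counts over all 8 libraries and were not tested.

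**Figure D5:**
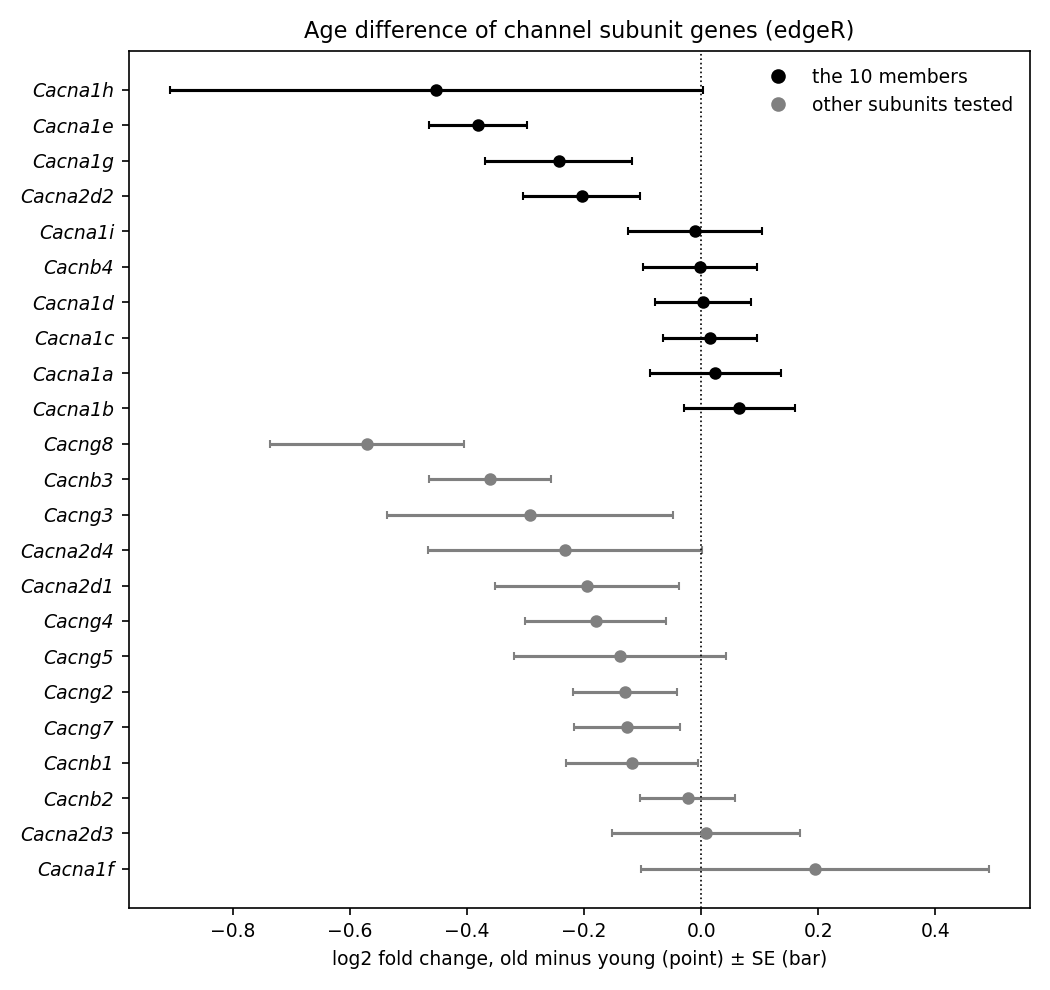
Log2 fold change, old minus young, with its SE (horizontal axis) for the 10 members (black) and the 13 other subunit genes tested (grey). Among the members, Cacna1e has a narrow bar away from 0, Cacna1h a wide one, and 6 of the 10 lie between -0.01 and 0.06.

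Proteins that bind or restrain the channels were a second list of 15 genes. Of these, 12 were tested and none passed. Negative values were found for 10 of the 12, with a median of -0.12, against 51.4% negative over all genes. An unadjusted p under 0.05 in edgeR was found for 3, against 11.0% of all genes. Calm3 is a calmodulin gene, whose product is the calcium sensor bound to the alpha1 subunit. It had 1141 ± 55.4 CPM in old mice against 1311 ± 72.6 CPM in young mice (SD, n = 4 each). Old values lay wholly below young values, as for 3.42% of all genes. The log2 fold change was -0.20 ± 0.07 (edgeR adjusted p = 0.349). Stac, an adaptor of L-type channels, had -0.41 ± 0.18 (edgeR adjusted p = 0.421).

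Sex made no difference that passed the test in any member. No member had an unadjusted p under 0.05 in edgeR, where 4.76% of all genes did, and none was called by edgeR (0.0423% of all genes), DESeq2 or limma-voom. The lowest p was that of Cacna1i, at 114 ± 9.53 CPM (SD, n = 4) in males and 96.9 ± 15.4 CPM (SD, n = 4) in females, a log2 fold change of -0.23 ± 0.11 (female minus male, edgeR adjusted p = 0.930). The interaction of age and sex called no member in edgeR, DESeq2 or limma-voom, and no member had an unadjusted p under 0.05 there, against 2.30% of all genes. With 2 mice per cell the errors of this contrast were 0.16 to 0.25 on the log2 scale, and 0.92 for Cacna1h.

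The members are spread over 9 chromosomes, with Cacna1b (24603887 to 24763152) and Cacnb4 (52428320 to 52676831) both on chromosome 2. Cacna1a lies on chromosome 8 at 84388440 to 84640246, Cacna1c on chromosome 6 at 118587240 to 119196418, Cacna1d on chromosome 14 at 30039939 to 30491455, and Cacna1g on chromosome 11 at 94408391 to 94474198. Cacna1h lies on chromosome 17 at 25374285 to 25433783, Cacna1i on chromosome 15 at 80287238 to 80398279 and Cacna2d2 on chromosome 9 at 107399612 to 107529343. These spans of GRCm38 range from 59.5 kb for Cacna1h to 609 kb for Cacna1c, and Cacna1e spans 494 kb. Exons of Cacna1a, Cacna1h, Cacna2d2 and Cacnb4 overlap those of genes on the opposite strand that were not analysed here.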

How the data were processed

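Cerebellar RNA of 8 mice was made into ribosomal RNA-depleted total RNA libraries, per the labels' protocols. The authors deposited 1 table of raw counts per gene for each library, per the file headers. The submitters' processing notes name Trimmomatic 0.39, STAR 2.7.5b, SAMtools 1.10 and featureCounts, with GRCm38 and mm10 as builds. Not given in the sources used here are the annotation counted against, whether strand was used and how multi-mapping reads were treated. Tables were joined by row, since 24 names had turned into dates in 7 of them.

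Genes were kept by filterByExpr (minimum 10 counts, age-by-sex cells), which left 14191, among them all 10 members. Age and sex were tested by quasi-likelihood in edgeR 4.0.16 (R 4.3.3) with TMM, robust dispersions by its newer method, and terms for age and sex, with Benjamini-Hochberg adjustment over all genes at 0.05. A standard error is the size of the log2 fold change divided by the root of F. Marker scores are median deviations of log2 CPM (prior count 2). Alternatives included DESeq2 1.42.0 and limma-voom (limma 3.58.1). Scripts were tested on simulated data. No pair of libraries of an age agreed within sampling noise. Labels give no batch.

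The members, lists and alternatives were chosen with earlier results of these data known. All members are described, and of each other list up to 2 genes with the smallest p. Lengths and coordinates are from GENCODE M21 (GRCm38).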

Additional observations from a re-analysis of the deposited data

Results flagged for a closer look

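Cacna1g in old 3 stood apart from the other old mice, at 253 CPM against 178 to 184 CPM. The gap to the nearest old mouse was 0.917 of the group's range, above the critical value of Dixon's test for 4 samples. Of 20 groups examined, 10 members at 2 ages, this was the 1 that exceeded it, and chance flags about 1 in 20. Old 3 also had the highest Purkinje cell score of the old mice, 0.16, and the lowest Cacna1h, 2.83 CPM. Whether these values are related was not tested.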

How the results depend on the processing

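No member passed in the main edgeR test or in 19 of 21 alternatives, and 1 (Cacna1e) passed with DESeq2 (log2 fold change -0.37) and on age in weeks (-0.42). Over all genes 17 passed for age, against 125 with DESeq2, 26 with the older dispersions, 1 with limma-voom, 103 on age in weeks, 143, 1 and 0 with the granule neuron, Purkinje cell and choroid plexus scores, 184 without old 2, old 3 and young 4, and 0 to 63 without 1 library (0 without young 3 or young 4, 2 without old 1 or young 1, 8 without young 2, 49 without old 3, 63 without old 2). The cause was not tested. For sex 6 genes passed, and 4 to 46 without 1 library (46 without old 3). For the interaction none passed, against 1 with DESeq2 and 0 to 2 without 1 library (2 without old 1 or old 3).

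The numbers of the labels do not pair the mice: same-numbered mice had correlations of -0.25 to 0.16, and 1 of 8 libraries correlated best with its own number. With the replicate block 1 gene passed for age, and Cacna1e had -0.38 (edgeR adjusted p = 0.507).

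Without 1 library, Cacna1e ranged from -0.43 to -0.31, Cacna1g from -0.38 to -0.17, Cacna2d2 from -0.31 to -0.12 and Cacna1h from -0.83 to -0.08. Members near 0 turned sign: Cacna1a ranged from -0.079 to 0.11, Cacna1b from -0.0041 to 0.14, Cacna1c from -0.038 to 0.061, Cacna1d from -0.056 to 0.040, Cacna1i from -0.094 to 0.077 and Cacnb4 from -0.087 to 0.069. With the granule neuron score Cacna1d was at -0.053, Cacna1i at 0.11 and Cacnb4 at 0.086. With the Purkinje cell score Cacna1b was at -0.023, Cacna1d at -0.050, Cacna1i at 0.040 and Cacnb4 at 0.091. With the choroid plexus score Cacna1d was at -0.030 and Cacnb4 at 0.050. Without old 2, old 3 and young 4, Cacna1c was at -0.0097, Cacna1d at -0.012 and Cacna1h at 0.013. Limma-voom gave 0.032 for Cacna1i. The filter of 50 counts in 4 libraries gave 0.013 for Cacna1i and 0.020 for Cacnb4, and DESeq2 0.0037 for Cacnb4 (0.0036 with its size factors alone). Shares of pore-forming transcripts without 1 library were 35.3 to 36.1% for T-type genes and 14.9 to 15.6% for Cacna1e, and 30.5% and 19.3% with the longest transcript as length. Cacna1h had the fewest counts of the members, which limits its precision.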

Other observations

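Genes that release, pump or buffer calcium were compared as a list of 18, all tested. Of these, 15 were negative, with a median log2 fold change of -0.17, 8 had an unadjusted p under 0.05 in edgeR and none passed the adjusted p of 0.05. Over all genes, 51.4% were negative and 11.0% had such a p. Itpr1 and Calb1 are also in the Purkinje cell marker list, where 12 of 13 genes were negative, with a median of -0.17. Itpr3, an inositol trisphosphate receptor named after its values were seen, was the 1 of these 8 that was positive, with a log2 fold change of 0.51 ± 0.17 (edgeR adjusted p = 0.299). Slc8a1, a sodium-calcium exchanger, had 541, 525, 484 and 471 CPM in old 1 to old 4 and 672, 639, 589 and 615 CPM in young 1 to young 4. Every old mouse was below every young mouse, as for 3.42% of all genes, and the log2 fold change was -0.31 ± 0.08 (edgeR adjusted p = 0.150, DESeq2 adjusted p = 0.00875). Atp2b4, a plasma membrane calcium pump, had 71.6 ± 10.2 CPM in old mice against 91.4 ± 8.95 CPM in young mice (SD, n = 4 each), with overlap and a log2 fold change of -0.35 ± 0.10 (edgeR adjusted p = 0.213).

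Calcium-activated potassium channels, which calcium channel opening switches on, were a list of 7 with 6 tested. Of these, 3 were positive and 3 negative, with a median of 0.01, and none had an unadjusted p under 0.05 or passed. Kcnn1 and Kcnn2, small-conductance channels, had log2 fold changes of -0.26 ± 0.20 and 0.14 ± 0.11 (edgeR adjusted p = 0.686 for each).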
